A study of Mus musculus with 2 samples.

Results

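The genes of interleukin-2 (IL-2), interleukin-15 (IL-15) and their receptor family were compared between mouse T cells after exposure to retinal pigment epithelium (RPE), the pigmented sheet that supports the photoreceptors, and control T cells. The genes were taken by symbol. They comprised the cytokines Il2 and Il15, the receptor chains Il2ra, Il2rb, Il7r, Il9r and Il15ra, and the kinases Jak1 and Jak3, together with Il2rg, the common gamma chain itself. Of these 10 genes, 9 had at least 1 probe set (short probes read together as 1 transcript signal) annotated to that gene alone, giving 15 probe sets of the 34945 annotated to exactly 1 gene. Il2rg is not analysed here.

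Each group was 1 Affymetrix array. The RPE-exposed array held T cells exposed to RPE, with primary cultured RPE named in its tissue field. The control array held T cells titled as CD4 T cells. Both were labelled as coming from male mice of a C57 BL/6 background, 6 weeks old. The labels give neither the stimulus, the length of the exposure nor the number of animals, and whether the RPE cells were separated from the T cells before extraction is not stated in them. A single array per group leaves no replicate error, so no difference below was tested. The number of arrays limits the precision of every value. A level is the deposited signal in intensity units, and a difference is the log2 signal in RPE-exposed cells minus that in control cells. Signals under an array's median (16 on the RPE-exposed and 15.9 on the control array, called the floor here) were set to it.

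IL-2 is made by activated T cells and drives their growth and survival. Its receptor joins the alpha chain (Il2ra, CD25), which raises affinity, to the beta chain (Il2rb) and the common gamma chain, which carry the signal. IL-15 uses the same beta and gamma chains and is presented by its own alpha chain, Il15ra. The common gamma chain also serves IL-4, IL-7, IL-9 and IL-21. JAK1 binds the cytokine-specific chains and JAK3 the gamma chain, and in the IL-2 and IL-15 receptors they activate mainly STAT5. STAT5 in turn switches on feedback inhibitors such as Cish.

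The deposited signals of the 2 arrays were on a common scale, with a mean of 100.0 on both after trimming 2% at either end. Equal trimmed means can be set by scaling before deposit, so they do not show that the RNA samples match. The 3'/5' ratio of Gapdh was 0.799 on the RPE-exposed and 0.801 on the control array. T-cell markers were well above the floor on both, with Cd3d at 3505.9 in RPE-exposed and 3073.4 in control cells and Cd2 at 2212.2 and 2329.9. The 8 T-cell markers measured had a median difference of -0.02. Although the control title reads CD4 T cells, both CD8 chain genes were also above the floor, with Cd8b1 at 983.9 in RPE-exposed and 706.4 in control cells and Cd8a at 694.6 and 568.8. Cd4 itself was at 271.1 in RPE-exposed and 287.0 in control cells on its brighter probe set (-0.08). Its dimmer probe set gave 186.7 and 123.6 (0.60), the opposite sign, so no direction can be given for Cd4. Of 12 RPE markers none was above the floor on both arrays. Pmel lay above it in RPE-exposed cells only (18.3 against 15.2 in control cells), and Mitf in control cells only (15.2 in RPE-exposed and 17.3 in control cells).

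The ligand Il2 was low in the exposed sample while its receptor chains were not. Il2 had a signal of 14.3 in RPE-exposed T cells, under the floor, and of 39.8 in control T cells. The fold is therefore a bound, at least 2.49-fold lower in RPE-exposed cells, and it rests on the single probe set annotated to this gene alone. The control signal was itself dim, so this difference lies in the range where signals are least precise. Where several probe sets of a gene could be measured on both arrays, their log2 differences had a pooled SD of 0.29 for genes with a mean signal under 100, 0.22 for those between 100 and 500, and 0.14 for brighter ones. Such probe sets share their RNA and are not replicates.

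Il15 was near the floor in both samples, at 18.8 in RPE-exposed and 18.4 in control T cells on its 1 probe set, a difference of 0.03. Its source is chiefly myeloid and stromal cells rather than T cells. The 9 markers of macrophages and dendritic cells above the floor on both arrays had a median difference of -0.51, and 8 of the 9 were lower in RPE-exposed cells. The summed signal of the 12 markers on the array was 470.8 in RPE-exposed and 665.7 in control cells. Cybb was at 125.1 and 159.2, and Fcer1g at 93.2 and 132.4. Lyz1 was at 7.5 and 41.3, at least 2.58-fold lower, on the brightest of its 3 probe sets. Itgam and the other Lyz1 probe sets lay under the floor on both arrays. Their part in the Il15 and Il15ra signals was not tested.

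**Figure D1:**
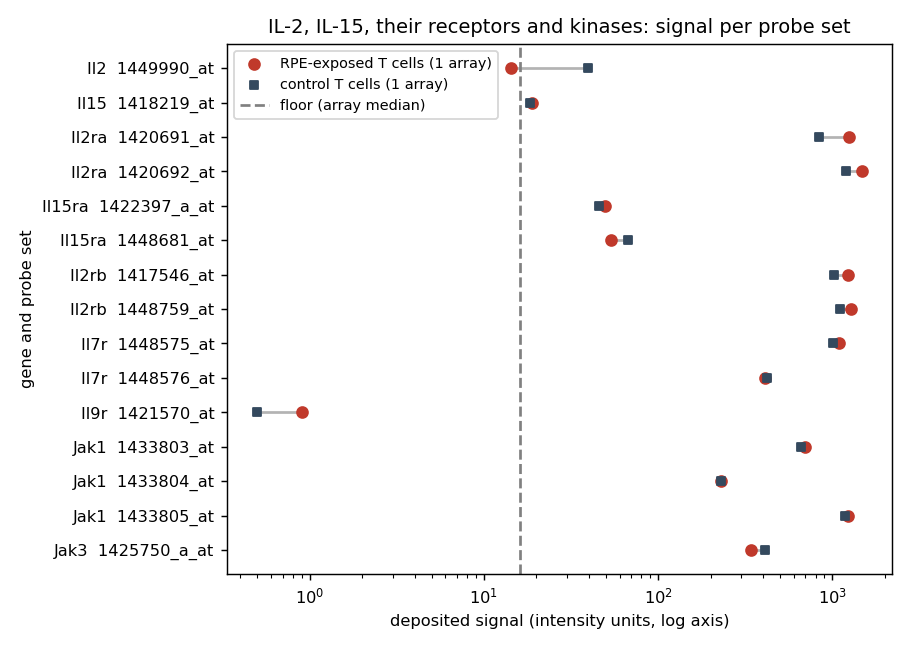
Deposited signal of each of the 15 probe sets (log axis, intensity units) on the RPE-exposed array (circles) and the control array (squares), with the floor as a dashed line. Il2 lies at 14.3, under the floor, in RPE-exposed cells and at 39.8 in control cells, and both Il2ra and both Il2rb probe sets are brighter in RPE-exposed cells.

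To show the promoters of the cytokine genes of the family that were lower in RPE-exposed cells, beside that of Il2ra, 1 of the receptor genes that were higher, the 250 bases before the annotated start are printed for Il2, Il21, Il4 and Il2ra (RefSeq, GRCm38.p6, each 5′ to 3′ on the gene's own strand). Il4 has 2 annotated starts in that table, and the more upstream is shown. Capitals mark GGAAA on either strand (TTTCC on the printed one), the core that NFAT factors bind. The windows are chr3:37125955-37126204 for Il2 (minus strand), chr3:37232637-37232886 for Il21 (minus), chr11:53618666-53618915 for Il4 (minus) and chr2:11642542-11642791 for Il2ra (plus).
Il2: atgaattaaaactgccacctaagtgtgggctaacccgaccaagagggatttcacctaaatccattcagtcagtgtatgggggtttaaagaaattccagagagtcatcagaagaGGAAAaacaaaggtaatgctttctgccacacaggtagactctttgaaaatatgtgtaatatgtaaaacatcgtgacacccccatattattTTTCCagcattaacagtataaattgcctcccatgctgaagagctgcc
Il21: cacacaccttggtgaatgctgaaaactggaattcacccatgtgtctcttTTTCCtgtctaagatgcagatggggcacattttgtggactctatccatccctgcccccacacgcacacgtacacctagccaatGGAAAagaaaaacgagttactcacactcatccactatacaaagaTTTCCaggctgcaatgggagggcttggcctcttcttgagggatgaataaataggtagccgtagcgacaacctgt
Il4: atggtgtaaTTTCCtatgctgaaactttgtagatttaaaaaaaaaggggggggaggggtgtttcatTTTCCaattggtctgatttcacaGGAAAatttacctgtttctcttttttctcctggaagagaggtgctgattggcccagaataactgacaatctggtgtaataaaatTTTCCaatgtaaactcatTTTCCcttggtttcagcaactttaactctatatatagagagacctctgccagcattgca
Il2ra: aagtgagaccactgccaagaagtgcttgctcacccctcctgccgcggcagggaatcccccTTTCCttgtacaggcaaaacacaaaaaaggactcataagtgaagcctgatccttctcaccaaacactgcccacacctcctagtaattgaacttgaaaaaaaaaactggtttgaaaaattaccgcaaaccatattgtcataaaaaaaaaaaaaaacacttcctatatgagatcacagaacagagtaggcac

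The NFAT core letters occurred 2 times in the Il2 window, with first bases at -137 and -47 from the start, 3 times in that of Il21, at -201, -118 and -74, and 5 times in that of Il4, at -241, -184, -161, -77 and -59. The Il2ra window held 1 match, at -190. These letters are common: 55.6% of all 32851 promoter windows of the same length held at least 1 match, 21.4% held at least 2, 6.39% at least 3 and 0.390% at least 5. The AP-1 letters TGANTCA, the octamer ATGCAAAT and the STAT letters TTCNNNGAA were searched on both strands too and had no match in these 4 windows, against 6.75%, 1.60% and 7.02% of all windows. None of these motifs overlaps another in the 4 windows, since only the NFAT core occurred. A match is a run of letters and not a measured site. In the RefSeq annotation Il2 and Il21 are neighbours on chromosome 3 with 0 protein-coding genes between them, as are Il2ra and Il15ra on chromosome 2.

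The receptor chains that bind IL-2 were slightly brighter in RPE-exposed T cells. Il2ra gave 1245.6 in RPE-exposed and 840.2 in control cells on its dimmer probe set, 1.48-fold higher (log2 difference 0.57). On the brighter one it gave 1482.4 in RPE-exposed and 1200.7 in control cells, 1.23-fold higher (0.30). Both probe sets were made to the same sequence accession, and they averaged 0.44 ± 0.19 (SD over 2 probe sets). The dimmer lay outside the central 95% of differences of probe sets of like level (-0.34 to 0.42), and the brighter lay just inside its own (-0.22 to 0.31). Il2ra encodes the chain that activated and regulatory T cells carry, and regulatory T cells need it for IL-2 uptake. Foxp3, the factor that defines those cells, has 1 probe set, near the floor on both arrays. It was at 15.8 in RPE-exposed cells, under the floor, and at 18.4 in control cells. The part of regulatory T cells in the Il2ra difference was not tested.

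Il2rb gave 1233.4 in RPE-exposed and 1015.7 in control cells on 1 probe set (1.21-fold, 0.28) and 1283.2 and 1107.2 on the other (1.16-fold, 0.21). Its probe sets gave similar differences, at 0.25 ± 0.05 (SD over 2 probe sets), and both lay within their like-level range of -0.34 to 0.42. Il2rb is also prominent on CD8 T cells and natural killer cells. The CD8 markers were higher by a median of 0.38, with Cd8b1 at 0.48 and Cd8a at 0.29 on its brightest probe set. On the same probe-set scale Cd8b1 lay outside its like-level range of -0.34 to 0.42. So did 1 of the 5 Cd8a probe sets, at 0.52 with a range of -0.47 to 0.50. Of all probe sets measured on both arrays, 5.04% lay outside theirs. On the gene scale Cd8b1 lay inside its range of -0.41 to 0.49, and 0 of the 2 CD8 genes lay outside. Of 6 natural killer markers, all above the floor, 2 were higher and 4 lower, with a median of -0.15, among them Klrk1 at 460.6 in RPE-exposed and 373.5 in control cells and Klrd1 at 590.6 and 600.1. Klre1, at 38.8 in RPE-exposed and 68.7 in control cells (-0.82), was the 1 outside its like-level range. Klra8 (25.8 and 31.9) and Ncr1 (17.8 and 21.5) were dim. The summed signal of the 6 was 1242.5 in RPE-exposed and 1196.7 in control cells, most of it from Klrk1 and Klrd1. That of the CD8 chains was 1678.5 and 1275.2. Whether these markers are particular to natural killer cells or to CD8 T cells was not tested, so these sums need not come from separate cells. The part of the natural killer and CD8 genes in the Il2rb difference was not tested. In RNA from a cell mixture, fewer cells of a type and less RNA per cell cannot be told apart.

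**Figure D2:**
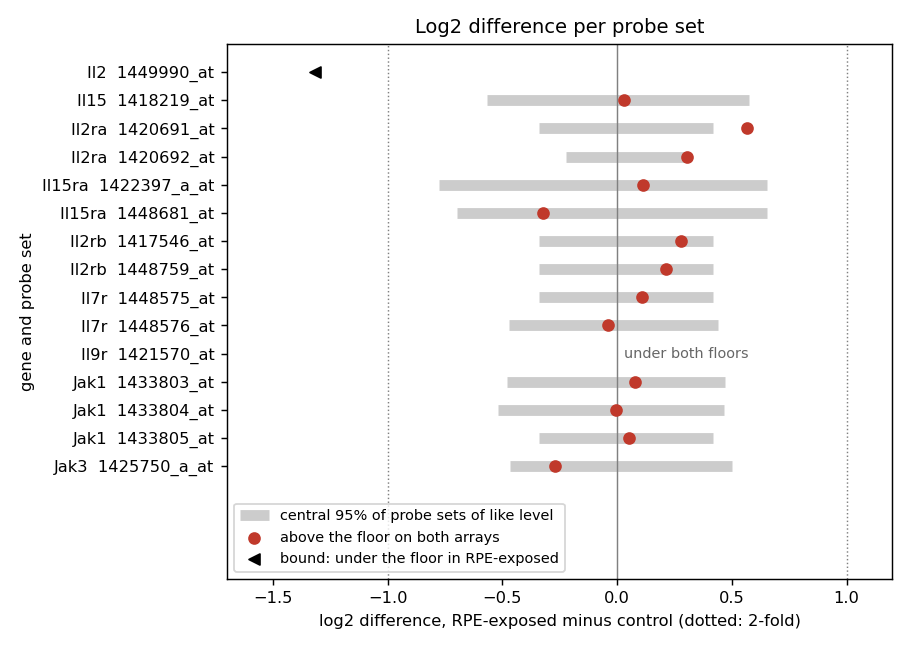
Log2 difference, RPE-exposed minus control, of each probe set, with the central 95% of differences of probe sets of like level as grey bars and 2-fold as dotted lines. Of the 13 measured on both arrays, the dimmer probe set of Il2ra (0.57) is the 1 outside its grey bar, and the triangle marks the bound for Il2 (-1.31).

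The remaining receptor chains differed little or were dim. Il7r, the alpha chain of the IL-7 receptor that keeps resting T cells alive, gave 1086.3 in RPE-exposed and 1006.1 in control cells on 1 probe set (0.11) and 408.6 and 419.9 on the other (-0.04). The 2 probe sets disagreed in sign and averaged 0.04 ± 0.11 (SD). Il15ra gave 49.2 in RPE-exposed and 45.5 in control cells on 1 probe set (0.11) and 53.9 and 67.4 on the other (-0.32), again with opposite signs, at -0.10 ± 0.31 (SD over 2 probe sets). No direction can be given for either gene. Il9r, the IL-9 receptor chain, had signals of 0.9 in RPE-exposed and 0.5 in control cells, under the floor on both arrays, and was not compared.

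Of the kinases, Jak1 was alike in both samples on all 3 of its probe sets. They gave 695.2 in RPE-exposed and 659.4 in control cells, 229.2 and 230.2, and 1223.6 and 1181.9, averaging 0.04 ± 0.04 (SD over 3 probe sets). Jak3 was at 339.5 in RPE-exposed and 409.2 in control cells on its single-gene probe set, 1.21-fold lower (-0.27), inside its like-level range of -0.47 to 0.50. Jak3 has no other probe set annotated to it alone, so this value has no second measurement.

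Over the family, 1 of the 8 genes compared, Il2, was at least 2-fold lower in RPE-exposed cells and 0 were 2-fold higher. Over all 11015 genes compared the share at least 2-fold lower was 0.626% and the share 2-fold higher 0.436%, in all 1.06%. Il2 passed the filter only through the control array. By probe set, 0.69% of the 20294 compared were 2-fold lower, 0.508% were 2-fold higher and 1.2% differed 2-fold either way. All 13 member probe sets measured on both arrays lay within 1.5-fold, as did 93.5% of all 18249 such probe sets. Of the 13, 9 were positive and 4 negative, against 48.4% positive over all. The 8 genes had a median difference of 0.04, beside -0.0092 over all genes compared.

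**Figure D3:**
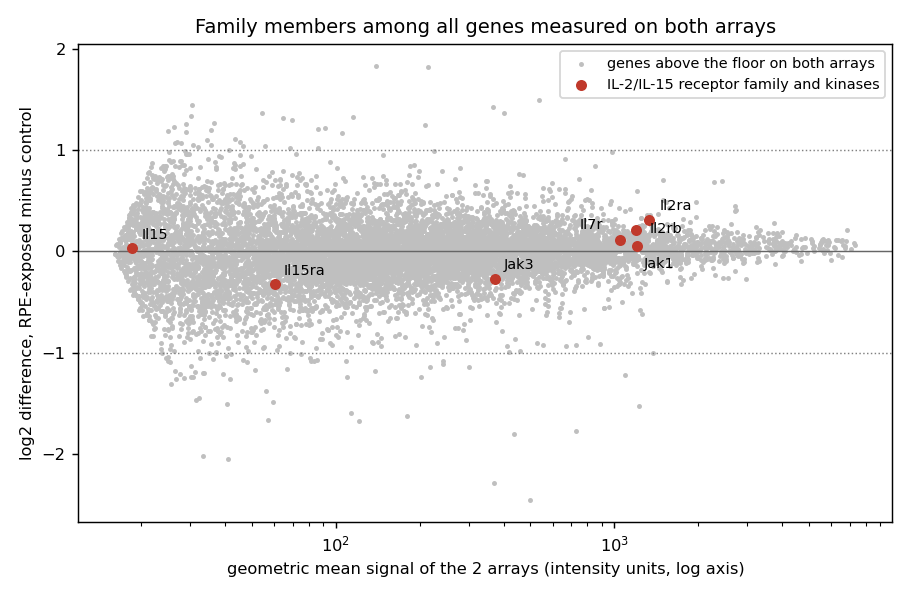
Log2 difference against geometric mean signal (log axis) for the 10011 genes measured on both arrays (grey) and the 7 family genes among them (red), each by its brightest probe set. The 7 genes lie between -0.32 (Il15ra) and 0.30 (Il2ra), inside the dotted 2-fold lines.

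Of the other cytokines and receptors that use the common gamma chain, the 4 that could be measured, Il4, Il21, Il4ra and Il21r, were lower in RPE-exposed T cells. Il4, the signature cytokine of type 2 helper cells, was at 35.6 in RPE-exposed and 99.6 in control cells, 2.80-fold lower. Il21, which acts on B cells and helper T cells, was at 326.7 in RPE-exposed and 645.1 in control cells on its brighter probe set, a difference of -0.98. Its dimmer probe set gave 51.4 in RPE-exposed and 132.8 in control cells (-1.37), past 2-fold, so whether Il21 counts as 2-fold lower depends on the probe set. Of the receptor chain genes, Il4ra was at 324.7 in RPE-exposed and 592.8 in control cells on its brightest probe set (-0.87), and on its next brightest at 249.0 and 530.4 (-1.09). Il21r was at 206.1 in RPE-exposed and 303.6 in control cells (-0.56). The list also held Crlf2 and Tslp, the receptor chain and cytokine of thymic stromal lymphopoietin, whose receptor pairs Crlf2 with Il7r and does not use the gamma chain. Crlf2 was at 461.3 in RPE-exposed and 346.4 in control cells (0.41). Il7, Il9 and Tslp were under the floor on both arrays. Of the 5 genes compared in the list, Crlf2 among them, 1 was 2-fold lower and 0 were 2-fold higher, 4 of the 5 were outside their like-level ranges, where 5.19% of all genes above both floors were, and the median was -0.87. B cells and myeloid cells also carry Il4ra and Il21r, and the 8 B-cell markers above the floor on both arrays had a median of -0.51, 7 of them lower. Of the 8, 4 lay outside their like-level ranges. Over all genes compared 48.3% were positive. The summed signal of the 9 B-cell markers on the array was 1400.4 in RPE-exposed and 2165.0 in control cells. Ms4a1 was at 443.6 and 618.5, Pou2af1 at 298.6 and 572.0, and Vpreb3 at 26.8 and 64.4. Their part in these differences was not tested.

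Downstream of the receptors, Jak2 was the 1 other Janus kinase or STAT gene outside its like-level range over genes, each by its brightest probe set. It was at 529.3 in RPE-exposed and 780.4 in control cells, 1.47-fold lower (-0.56), and its 2 probe sets gave a SD of 0.05. JAK2 serves other cytokine receptors, such as those of interferon-gamma and IL-12, and not the gamma chain. Stat5a, which with Stat5b encodes the STAT5 that relays IL-2, was at 516.3 in RPE-exposed and 648.5 in control cells on its brighter probe set (-0.33). On its dimmer probe set it was at 363.4 and 510.9 (-0.49), just outside the probe-set range of -0.47 to 0.44. Its close paralog Stat5b was at 365.0 and 436.8 on its brighter probe set (-0.26) and at 203.8 and 200.6 on its dimmer (0.02). The pair share much of their sequence, so their probe sets may share signal. Stat3, used by IL-21, gave -0.24 on its brightest probe set, and its 4 probe sets averaged -0.10 ± 0.13 (SD). The probe sets of Stat5b and those of Stat3 disagreed in sign, so no direction can be given for either gene. Stat6, used by IL-4, gave -0.12. Stat2 gave 0.20, Stat4 0.11 and Tyk2 0.05. By brightest probe set, none of these 8 genes was 2-fold different, 5 were lower and 3 higher, and the median was -0.18. Over all genes compared 48.3% were positive and 1.06% were past 2-fold, and 5.19% of those measured on both arrays lay outside their like-level ranges.

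The feedback inhibitors of these pathways were mostly lower. Cish, a STAT5 target that dampens IL-2 signalling, was at 485.1 in RPE-exposed and 925.9 in control cells (-0.93). Socs3, an inhibitor induced mainly by STAT3 cytokines, was at 600.1 in RPE-exposed and 1077.4 in control cells (-0.84), and its 3 probe sets differed by a SD of 0.015. Of 12 such genes 10 were lower, 2 higher, 0 by 2-fold in either direction, and 4 lay outside their like-level ranges, with a median of -0.29. Over all genes compared 48.3% were positive and 1.06% were past 2-fold, and 5.19% of those measured on both arrays lay outside such ranges. Of the adaptors and kinases that couple the receptors to growth signalling, 6 of 10 were higher and 4 lower, with a median of 0.05 and 0 past 2-fold. Their largest differences were those of Syk, a kinase abundant in B cells and myeloid cells, at 58.1 in RPE-exposed and 96.1 in control cells (-0.73), and of the adaptor Shc1 at 144.6 and 109.2 (0.41). Lck and Rps6kb1 are not analysed here.

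**Figure D4:**
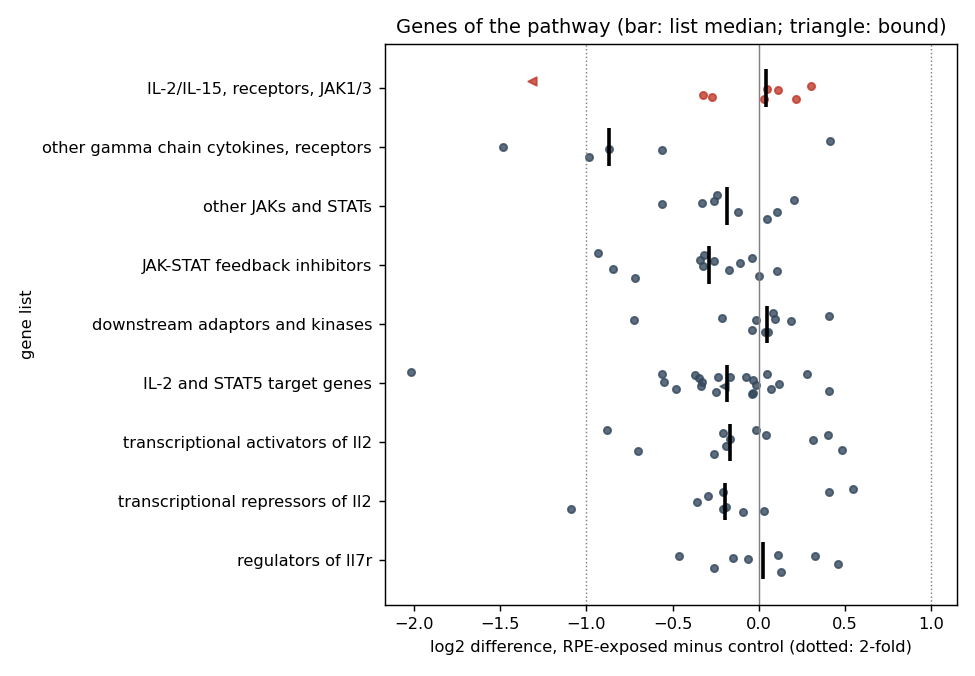
Log2 difference, RPE-exposed minus control, of each gene compared in the family and in 8 lists of related genes, with list medians as black bars, bounds as triangles and 2-fold as dotted lines. The median is -0.87 for the list of other gamma chain cytokines and receptors, which includes Crlf2, and -0.29 for feedback inhibitors, beside 0.04 for the family and 0.05 for adaptors and kinases.

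Genes that IL-2 and STAT5 are known to induce were spread around small negative values. Of 21 above the floor on both arrays 16 were lower and 5 higher, 5 lay outside their like-level ranges, and the median of the 22 compared was -0.19, beside 48.3% positive and 5.19% outside over all genes. The chemokine gene Xcl1 was the 1 past 2-fold, at 16.5 in RPE-exposed cells, just over the floor, and 66.8 in control cells, 4.05-fold lower. Myc, the growth factor-responsive transcription factor, was at 754.9 in RPE-exposed and 1111.9 in control cells (-0.56).

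Factors that act on the Il2 gene differed in both directions. The AP-1 subunit gene Jun was at 215.7 in RPE-exposed and 396.2 in control cells (-0.88), and Fosl2 at 295.3 and 479.1 (-0.70). The AP-1 subunit gene Jund was higher, at 603.5 in RPE-exposed and 484.7 in control cells (0.32), inside its like-level range. Cd28, the costimulatory receptor that raises Il2 transcription, was at 2319.2 in RPE-exposed and 1658.9 in control cells (0.48), outside its range of -0.19 to 0.28. Of the NFAT genes, Nfatc1 gave -0.02, Nfatc2 0.40 and Nfatc3 0.04, although the 5 probe sets of Nfatc1 above the floor spread with a SD of 0.84. The 3 probe sets of Nfatc2 above the floor ran from -0.19 to 0.68. Those of Nfatc1 also disagreed in sign, so no direction can be given for either gene. These 3 NFAT genes, Jund and Cd28 were named after their values were seen, the NFAT genes because the printed promoters carry the NFAT core. Of the 11 activators compared 7 were lower and 4 higher, 0 by 2-fold, and 3 lay outside their like-level ranges (Jun, Fosl2 and Cd28), with a median of -0.17. Nfkb1 and Pou2f1 are not analysed here. Of the 10 repressors 7 were lower and 3 higher, 2 lay outside their like-level ranges (Egr2 and Tob1), and the median was -0.20. Egr2, a factor that restrains Il2 in unresponsive T cells, was the 1 past 2-fold, at 166.6 in RPE-exposed and 353.9 in control cells (2.12-fold lower) on its brighter probe set. Its dimmer probe set gave 152.5 in RPE-exposed and 249.2 in control cells (-0.71), not past 2-fold. Tob1, an anti-proliferative gene of quiescent T cells, was at 192.0 in RPE-exposed and 131.6 in control cells (0.54). Over all genes compared, 48.3% were positive and 1.06% were past 2-fold. Of all genes measured on both arrays, 5.19% lay outside their like-level ranges.

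The regulators of Il7r were evenly divided, 4 higher and 4 lower, with a median of 0.03 and 0 past 2-fold. Of these 8 genes 2, Klf2 and Ets1, lay outside their like-level ranges, against 5.19% of all genes measured on both arrays. Ets1 gave -0.26 on its brightest probe set, and its 4 probe sets ran from -0.50 to 0.05. Gfi1, a repressor of Il7r in mouse T cells, was at 268.8 in RPE-exposed and 370.8 in control cells (-0.46). Klf2, a quiescence factor, was at 429.9 in RPE-exposed and 312.3 in control cells (0.46).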

How the data were processed

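The authors deposited 1 linear intensity per probe set and array, and the software that summarised the probes is not given in the sources used here. Both arrays held 45101 probe sets, 64 of them manufacturer's controls. The trimmed means of the deposited intensities were both 100.0, so no further scaling was applied. Genes were named from the platform annotation, in which 34945 non-control probe sets named 1 gene, 932 several and 9160 were not listed. Identifiers of 34741 were found in the RefSeq table of GRCm38.p6.

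Python 3.11.15 with pandas 2.3.3 and numpy 2.4.6 gave the log2 differences, and matplotlib 3.10.9 the plots. Each gene took the values of its brightest probe set by mean log2 signal. The comparison covered the 11015 of 18193 genes that reached the floor on either array. A gene at or above it on 1 array only has a bound. Differences of 2-fold were counted. The like-level range is the central 95% of differences within the same of 20 bins of mean level, over genes or, for single probe sets, over probe sets. The steps were tested on simulated data. The genes named were all members, every gamma chain, JAK and STAT gene, each listed gene past 2-fold, the 2 with the largest difference in each other pathway list, and the 2 brightest in each marker list. Also named, outside this rule, were Cd4, Foxp3, Itgam, Klre1, Klra8, Ncr1 and Ets1. The members and lists were chosen with earlier results of these data known.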

Additional observations from a re-analysis of the deposited data

How the results depend on the processing

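The 8 alternatives were a floor at the 25th or 75th percentile, no floor, an offset of 16, median centring, quantile normalization, averaged probe sets, and leaving out probe sets whose names end in x_at, s_at or a_at. Of 60 member values under them, all 60 kept their sign and 59 moved by under 1 probe-set SD. The exception was Il2 at -0.88 with the offset, where 0 members were 2-fold lower. The count was also 0 under the 75th-percentile floor, since Il2 was then under it on both arrays. Many of the 60 values could not move. A changed floor leaves a gene well above it at the same value, and averaging leaves a gene with 1 probe set unchanged. The counts of 60 and 59 therefore say little on how firm the values are. Il7r and Il15ra kept their sign here although their own probe sets disagreed in sign. The median of the other gamma chain cytokines and receptors was -0.56 under the 75th-percentile floor, -0.65 with averaged probe sets and -0.98 without the suffixed probe sets. Their count 2-fold lower was 2 under the 25th-percentile floor, without a floor and with averaged probe sets, and 0 under the 75th-percentile floor. Without the suffixed probe sets the median was -0.038 for other JAKs and STATs, -0.17 for feedback inhibitors and -0.056 for IL-2 and STAT5 targets. Under the 75th-percentile floor it was -0.075 for those targets, of which 0 were 2-fold lower, and -0.073 for activators of Il2. With averaged probe sets 0 repressors of Il2 were 2-fold lower. The median of the regulators of Il7r, 0.03, ran from -0.019 to 0.093. Over all genes the counts ran from 6 to 1581 higher and from 16 to 1431 lower, the largest with no floor. Fewer genes enter with a higher floor or without suffixed probe sets; other causes were not tested. No paired analysis was possible because each group holds 1 array. Leaving out an array leaves no comparison.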
